A study of Mus musculus with 186 samples.

Results

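The thalamus of wild-type mice at 12 weeks of age was compared with 5 other brain regions of wild-type mice of the same age. The members are the 5 thalamic libraries, which were chosen by their labels alone out of 186 libraries in the series. They were set against 25 libraries, 5 from each of the hippocampus (HP), the striatum (STR), the substantia nigra (SN), the prefrontal cortex (PFC) and the somatosensory cortex (SSC). The series profiled these 6 regions by bulk RNA sequencing at 4 and 12 weeks. Mice were wild type (WT), heterozygous (Akap11 +/-, HET) or homozygous (Akap11 -/-, KO) at the Akap11 locus. The product of Akap11 is a scaffold of the A-kinase anchoring family and holds protein kinase A (PKA) at defined sites in the cell. The HET, KO and 4-week WT libraries are used here only to see whether the same regional contrast appears in other libraries. Strain, sex and pooling are not in the labels used here, and tissue was cut from frozen brains in a cryostat. The labels do not say whether libraries that carry the same replicate number come from the same mouse, so p-values measure the spread between these libraries.

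The thalamus relays sensory, motor and limbic signals to the cortex. Most of its neurons are glutamatergic relay cells, which project to cortex and fire either single spikes or bursts, and the bursts depend on T-type calcium channels and HCN pacemaker channels. In rodents most thalamic nuclei hold few GABA neurons of their own, and much of the local inhibition comes from the reticular nucleus, a thin GABAergic sheet around the relay nuclei. The habenula, the hypothalamus, the hippocampus with its choroid plexus and the striatum lie next to the thalamus, so markers of these structures were followed in every library.

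Deposited totals were 37.0 to 59.7 M (mega) counts in the thalamic libraries and 31.9 to 69.8 M in the other 25. Levels are given as CPM, counts per M of library total after TMM scaling across the 30 libraries, and a fold change is the log2 level in thalamus minus the mean of the log2 levels in the 5 other regions. That mean gives each region equal weight, so a gene can be higher than the mean and still lower than a single region. In a principal component analysis of the 30 libraries, all 5 thalamic libraries lay apart from the other regions, and the SN libraries were nearest along the first component. The summed level of 18 thalamic relay neuron genes was 10850 to 11760 CPM in the thalamic libraries and 1096 to 3979 CPM in the others. Some markers of other structures were low and others were not. Slc6a3, the dopamine transporter of midbrain dopamine neurons, did not pass 0.437 CPM in any thalamic library. Aldh1a1, listed with it for the midbrain, was called higher than the mean of the others, at 172 to 268 CPM in thalamus. Trh and Pmch, listed for the hypothalamus, reached 9.34 and 1.19 CPM in single thalamic libraries. Ttr, the transthyretin gene of the choroid plexus, lay between 0.0273 and 3.49 CPM in thalamus and averaged 2247 ± 1288 CPM (SD, n = 5) in HP. The thalamic libraries did differ among themselves in markers of the reticular nucleus, which were high in libraries 1 and 4. In bulk tissue, fewer cells of a type and less RNA per cell cannot be told apart.

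**Figure D1:**
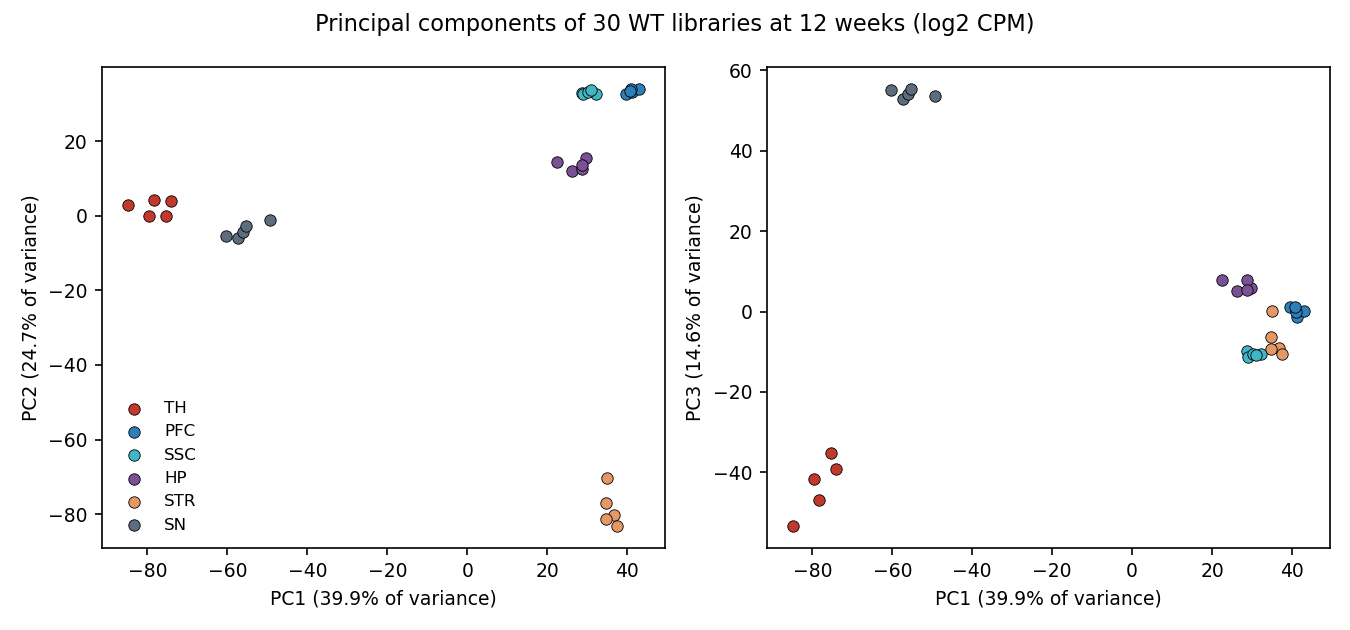
Principal components of log2 CPM in 30 WT libraries at 12 weeks, with 1 point per library coloured by region; the first component (39.9% of the variance) is on both horizontal axes, and components 2 (24.7%) and 3 (14.6%) are on the vertical axes. The thalamic libraries (TH) form a group of their own, beside SN on the first component and away from SN on component 3.

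Of 28338 genes in the table, 17180 passed the low-count filter, and 11491 of these (66.9%) were called at an adjusted p under 0.05. In thalamus 5865 genes were higher (34.1%) and 5626 lower (32.7%) than the mean of the others. A change of at least 2-fold was called for 1466 genes upward (8.53%) and 1970 downward (11.5%). Over all tested genes the median log2 fold change was -0.0068 and the median size was 0.38. Because so many genes were called in each direction, counts of called genes are read against these shares.

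A stricter class holds the genes called higher in thalamus than in each of the 5 regions, here termed thalamus-highest. It had 1531 genes (8.91%), and the reverse class, thalamus-lowest, had 1258 (7.32%). Every thalamic library lay above every other library for 1097 genes (6.39%) and below every other library for 668 (3.89%). The thalamus was at least 8-fold above each region for 83 genes and at least 8-fold below each for 92. The nearest region was SN, where 9143 genes (53.2%) differed from thalamus, against 10951 in SSC (63.7%), 11432 in PFC (66.5%), 11429 in HP (66.5%) and 11967 in STR (69.7%). SN was also the region that most often kept a gene out of the strict class, since 1514 genes were higher in thalamus than in the 4 other regions and not in SN. For the 4 other regions that count ran from 64 (PFC) to 243 (SSC). Of the 1466 genes called at least 2-fold higher than the mean, 206 were called lower than at least 1 single region.

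The 15 largest rises among genes with a thalamic mean of at least 10 CPM and no overlap between thalamic and other libraries included several regulators of development. Shox2, a homeobox transcription factor, stood at 181, 228, 179, 177 and 151 CPM in thalamic libraries 1 to 5. It averaged 6.38 ± 2.19 CPM in SN and 3.40 ± 2.16 CPM in HP, and at most 0.109 CPM in the other 3 regions (SD, n = 5). Shox2 is on the minus strand of chromosome 3, between 66971727 and 66981771 (mm10, GENCODE M21). The log2 fold change of Shox2 was 9.18 ± 0.26 (SE, adjusted p = 1.66e-22). Gbx2, a homeobox factor needed for the thalamus to form, stood at 21.7, 47.5, 41.8, 32.1 and 48.4 CPM. It had no counts in PFC, and averaged 0.930 ± 0.286 CPM in STR, the highest of the other regions, so the thalamic level was at least 8.47 higher on the log2 scale when PFC is set to 3 counts over its 5 libraries. Wnt9b, a secreted Wnt ligand, was between 43.2 and 50.8 CPM in the thalamic libraries and averaged at most 2.05 CPM elsewhere (log2 fold change 8.18 ± 0.23, adjusted p = 6.22e-23).

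Prkcd, protein kinase C delta and a marker of sensory relay nuclei, was the most abundant of the 15 in thalamus. Its values were 2365, 2168, 2199, 2080 and 2292 CPM in thalamus, against 59.0 ± 17.8 CPM in HP and 6.30 to 11.5 CPM on average in the other regions. The groups did not overlap and the log2 fold change was 7.43 ± 0.15 (adjusted p = 6.76e-26). Slitrk6, a transmembrane protein of neurite growth, was 60.6 to 93.9 CPM in thalamus and at most 4.19 CPM on average elsewhere. Ramp3, which modifies the calcitonin receptor family, held 260 to 288 CPM in thalamus and averaged 17.9 ± 1.61 CPM in PFC, the highest of the others. Vipr2, a receptor for the peptides VIP and PACAP, held 41.5 to 65.6 CPM and at most 2.503 CPM on average elsewhere. Synpo2, an actin-binding protein, held 441 to 511 CPM, with at most 45.8 CPM in any library of STR, the next region. The remaining genes of the 15 were Abhd12b, Adamts19, Rab37 and Epn3, with log2 fold changes between 5.59 and 8.60.

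3 of the 15 genes are known best from skeletal muscle, and other genes of muscle contraction and its calcium store went in both directions. Atp2a1, the fast-muscle calcium pump SERCA1, stood at 47.4, 42.4, 36.2, 41.3 and 42.7 CPM in thalamus and at no more than 0.858 CPM on average in any other region (log2 fold change 7.23 ± 0.20, adjusted p = 3.57e-23). Tnnt1, a slow-muscle troponin T, was 87.0 to 147 CPM in thalamus and at most 4.71 CPM on average elsewhere. Ppp1r3a, the muscle glycogen-targeting subunit of protein phosphatase 1, was 7.46 to 18.2 CPM in thalamus and had no counts in SSC, which puts it at least 8.61 higher on the log2 scale. By contrast Acta1, the actin of skeletal muscle, was lower in thalamus than in the mean of the others, at 1.17 to 2.27 CPM against 11.3 ± 1.31 CPM in SSC (log2 fold change -1.53 ± 0.13). Ryr1, the calcium release channel that works beside SERCA1 in muscle, was thalamus-lowest, at 0.173 to 0.492 CPM against 64.6 to 142 CPM in STR and 34.7 ± 3.65 CPM in PFC (log2 fold change -5.74 ± 0.25, adjusted p = 3.98e-18). Ryr2, its counterpart in heart and brain, was also thalamus-lowest (-3.78 ± 0.24), while Ryr3 was higher than the mean (1.26 ± 0.12) with STR above thalamus. Atp2a2, the pump SERCA2 of brain and heart, was thalamus-highest at 1812 to 2697 CPM (1.08 ± 0.09). Acta1, Atp2a2 and the Ryr genes were added to the named genes after their values were seen.

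**Figure D2:**
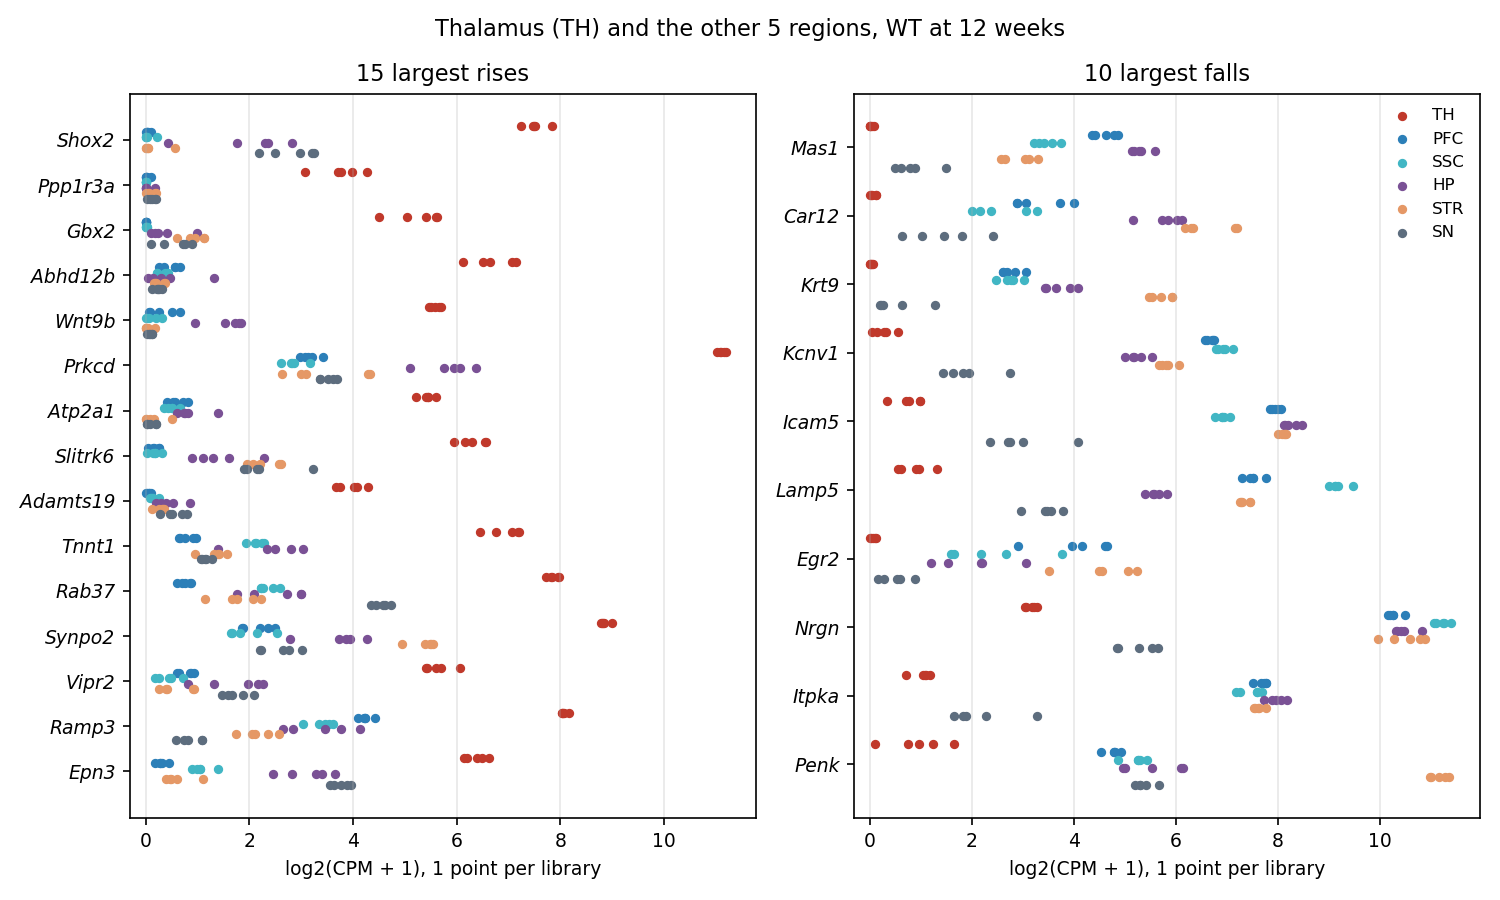
Levels of the 15 largest rises (left) and the 10 largest falls (right) in thalamus, as log2(CPM + 1) on the horizontal axis, with 1 point per library and 5 libraries per region. No thalamic point overlaps a point of another region, Prkcd lies at 2080 to 2365 CPM in thalamus, and for all falls but Penk the SN libraries come nearest to the thalamic ones.

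The 10 largest falls, chosen by the same rule with a mean of at least 10 CPM over the other 25 libraries, were all lower in thalamus than in every other library. Nrgn, neurogranin, a calmodulin-binding protein of the postsynaptic side, stood at 8.09, 7.34, 7.31, 8.70 and 8.31 CPM in thalamus. Its mean was 2377 ± 216 CPM in SSC and 37.6 ± 9.79 CPM in SN, the lowest of the others, and the log2 fold change was -6.56 ± 0.18 (adjusted p = 6.39e-23). Mas1, the receptor for angiotensin 1-7, had no counts in 3 thalamic libraries and at most 0.0547 CPM in the others, against 38.8 ± 5.10 CPM in HP (-8.79 ± 0.42, from 4 counts in thalamus). Icam5, telencephalin, an adhesion molecule of telencephalic dendrites, was 0.270 to 0.984 CPM in thalamus and 120 to 307 CPM on average in the 4 telencephalic regions (-7.32 ± 0.27). Itpka, a kinase of inositol trisphosphate in dendritic spines, was 0.636 to 1.27 CPM in thalamus and 178 to 251 CPM on average in those regions (-6.48 ± 0.26). Penk, the precursor of enkephalin, was 0.0771 to 2.14 CPM in thalamus and 2293 ± 267 CPM in STR (-6.32 ± 0.32). The potassium channel subunit Kcnv1, the membrane protein Lamp5, carbonic anhydrase 12 (Car12), the transcription factor Egr2 and Krt9 made up the rest, with log2 fold changes between -8.16 and -6.66.

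Of 14 transcription factors listed for the thalamus, 13 were higher than the mean of the others, 1 was lower and 9 were thalamus-highest, with a median log2 fold change of 3.32. Tcf7l2, a transcription factor that acts with beta-catenin in the Wnt pathway and that marks thalamic neurons, stood at 284, 343, 353, 309 and 404 CPM. SN came next with 45.6 ± 16.5 CPM and HP with 13.9 ± 9.45 CPM, and the log2 fold change was 5.59 ± 0.17 (adjusted p = 4.37e-22). Lef1, of the same family, was 102 to 122 CPM in thalamus and 3.94 to 5.46 CPM on average in every other region (4.69 ± 0.11). Rora, a nuclear receptor, was 689 to 780 CPM in thalamus, with SSC next at 140 ± 21.6 CPM (3.62 ± 0.09). Lhx9 was 20.6 to 45.9 CPM, which overlapped the HP libraries (15.4 ± 4.57 CPM), although the difference from HP was called. Lhx2, which the list holds for its early role, was lower (-0.75 ± 0.20, adjusted p = 0.00144).

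Beta-catenin itself moved in the same direction. Ctnnb1 was 775 to 862 CPM in thalamus and 306 to 498 CPM on average elsewhere, with no overlap (0.98 ± 0.04, adjusted p = 6.46e-20). Of 28 genes of the Wnt and beta-catenin pathway, 14 were higher, 8 lower and 6 not called, with a median log2 fold change of 0.21. Over all tested genes 34.1% were higher and 32.7% lower. The secreted proteins Dkk3 and Sfrp1, named from this list for the size of their change, were on the low side. Activity of the pathway was not tested. Dkk3 held 3.03 to 8.77 CPM against 599.5 ± 28.4 CPM in PFC (-4.96 ± 0.16), and Sfrp1 held 1.04 to 1.59 CPM against 15.1 ± 1.67 CPM in PFC (-3.02 ± 0.20).

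Because the TCF/LEF factors were among the highest genes, the promoters of the thalamus-highest genes were searched for CTTTGAT, the core letters of their binding motif, on both strands of the 250 bases before the start in the RefSeq promoter table (GRCm38.p6). Of 17180 tested genes 12514 were in the table by symbol. The motif was found for 347 of these genes (2.77%), for 31 of 1153 thalamus-highest genes (2.69%), and for 6 of the 256 that were at least 2-fold above every region (2.34%). For the 913 thalamus-lowest genes the share was 2.63%. These shares differed by less than 1 percentage point and were not tested against each other. Shox2, Gbx2 and Prkcd did not hold the letters in this window. A match is only a run of letters and is no evidence of binding. 3 of the 6 genes are printed as examples, not as the 3 with the largest rises. The motif is in capitals, and each sequence is read toward its gene, 5′ to 3′, and ends at the base before the start. Kcne4 encodes a potassium channel accessory subunit (12.6 ± 4.11 CPM in thalamus against at most 2.22 CPM on average elsewhere), Nr2f2 the nuclear receptor COUP-TFII (62.1 ± 14.9 CPM against at most 15.8 CPM), and Ppp1r3a was described above.
Ppp1r3a promoter, chr6:14755275-14755524, minus strand, motif 163 bases before the start: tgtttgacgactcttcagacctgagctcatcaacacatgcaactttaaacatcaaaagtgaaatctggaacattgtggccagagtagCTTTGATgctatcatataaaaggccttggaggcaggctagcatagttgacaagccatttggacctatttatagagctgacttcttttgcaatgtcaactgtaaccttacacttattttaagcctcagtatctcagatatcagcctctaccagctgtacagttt
Kcne4 promoter, chr1:78816661-78816910, plus strand, motif 239 bases before the start: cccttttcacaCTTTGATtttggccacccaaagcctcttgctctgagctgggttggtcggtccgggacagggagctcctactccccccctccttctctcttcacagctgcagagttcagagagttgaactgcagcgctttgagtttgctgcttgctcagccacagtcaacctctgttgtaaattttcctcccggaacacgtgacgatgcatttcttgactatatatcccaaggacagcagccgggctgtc
Nr2f2 promoter, chr7:70366747-70366996, minus strand, motif 114 bases before the start: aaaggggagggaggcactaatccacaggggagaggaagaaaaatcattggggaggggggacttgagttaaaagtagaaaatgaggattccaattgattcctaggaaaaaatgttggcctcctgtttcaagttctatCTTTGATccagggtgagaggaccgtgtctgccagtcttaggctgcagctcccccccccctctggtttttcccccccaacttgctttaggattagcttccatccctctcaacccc

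Of 18 genes of thalamic relay neurons, 17 were higher, none was lower and 13 were thalamus-highest, and the median log2 fold change was 4.19. The exception was Calb1, the calcium-binding protein calbindin, at 104 to 142 CPM in thalamus and 313 ± 41.4 CPM in STR (0.01 ± 0.10, adjusted p = 0.969). Ntng1, netrin-G1, which thalamic axons carry into cortex, was 515 to 606 CPM in thalamus against at most 60.02 CPM on average elsewhere (4.47 ± 0.10, adjusted p = 4.83e-25). Many of these genes are defined in the literature by their thalamic expression, so their direction checks the labels and is no independent finding.

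**Figure D3:**
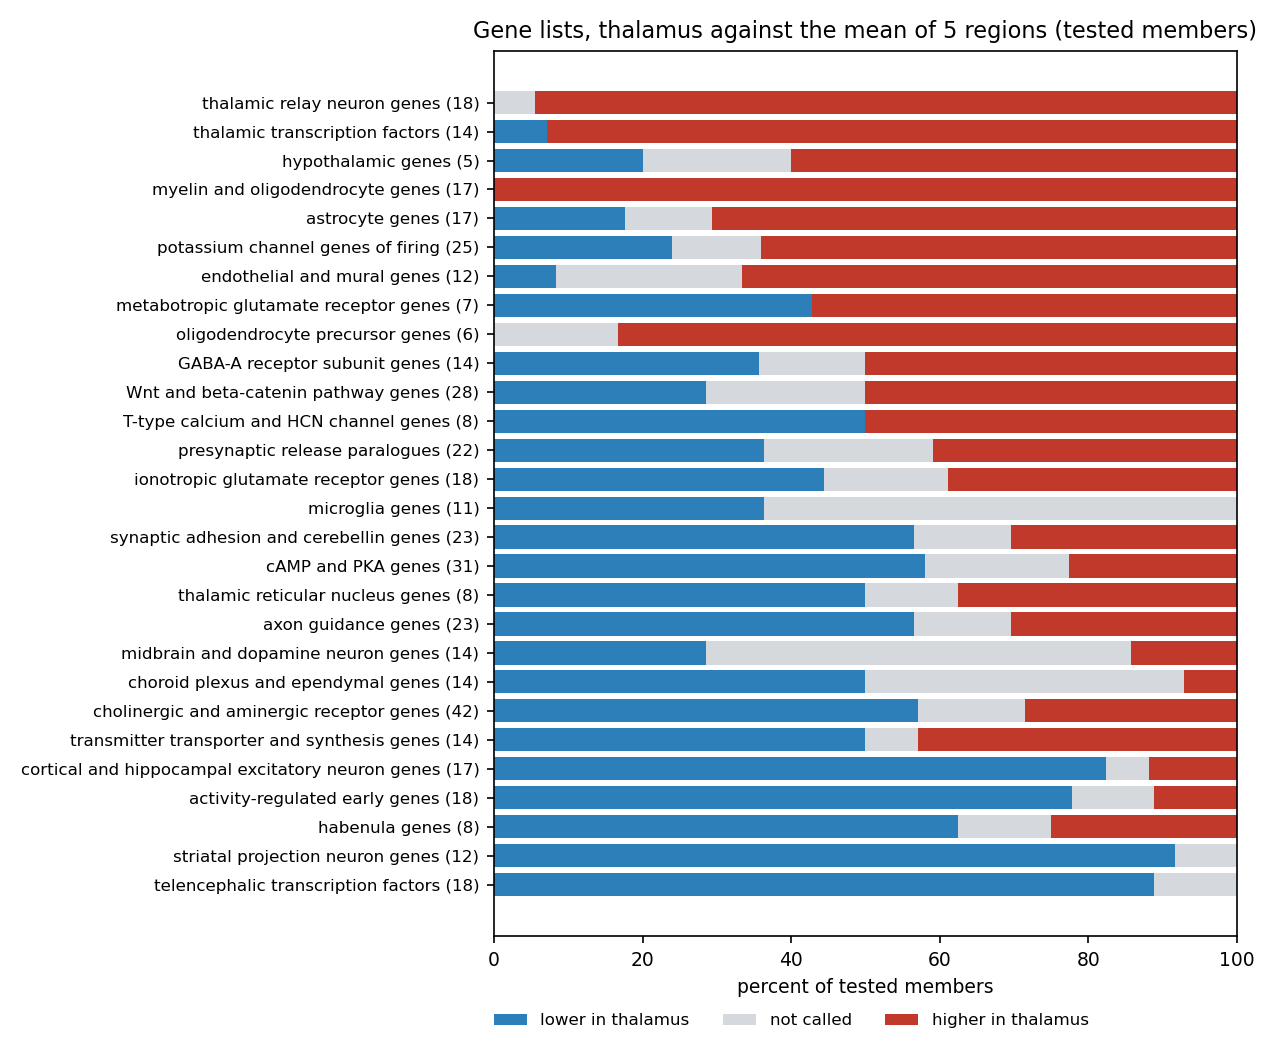
Share of the tested members of 28 gene lists that were called lower, not called or called higher in thalamus against the mean of the 5 other regions, ordered by median log2 fold change, with the number of tested members in brackets. All 17 myelin genes were higher and 16 of 18 telencephalic transcription factors were lower. The receptor and channel families had calls in both directions, as all tested genes did.

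Channels of burst firing were divided by paralogue. Of 8 listed T-type calcium and HCN channel genes, 4 were higher and 4 lower, and 4 were thalamus-highest and 3 thalamus-lowest. Calls in both directions are common here, since 34.1% of all tested genes were higher and 32.7% lower. Cacna1g, the T-type channel Cav3.1 of relay cells, stood at 376, 416, 456, 372 and 495 CPM in thalamus, with PFC next at 140 ± 4.24 CPM. It did not overlap any other region and was higher by 2.79 ± 0.07 on the log2 scale (adjusted p = 6.23e-24). Cacna1h, Cav3.2, was thalamus-lowest, at 5.61 to 15.7 CPM against 207 ± 33.8 CPM in HP (-2.996 ± 0.17). Cacna1i, Cav3.3, which the reticular nucleus uses, was also lowest on average, at 46.6, 16.6, 22.4, 56.0 and 24.5 CPM (-1.74 ± 0.18), and its 2 highest libraries were 1 and 4. The HCN channels carry the current that paces rhythmic firing. Hcn4 was 45.0 to 55.2 CPM in thalamus against 18.1 ± 2.30 CPM in SN, the next region (3.42 ± 0.11), and Hcn2 was 327 to 374 CPM against 303 ± 34.7 CPM in SN, with overlap (1.37 ± 0.06).

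Of 25 potassium channel genes of firing, 16 were higher, 6 lower and 3 not called (median log2 fold change 0.51). Over all tested genes 34.1% were higher and 32.7% lower. The lean toward higher genes was weaker against SSC alone, with 12 higher and 10 lower (median 0.12). Kcnc2, the Kv3.2 channel that allows fast firing, was 478 to 605 CPM in thalamus and at most 162 ± 13.6 CPM elsewhere (3.07 ± 0.06, adjusted p = 1.34e-26). Kcnq5, an M-current channel, was thalamus-lowest at 2.26 to 8.99 CPM, with SN at 12.8 ± 2.74 CPM and STR at 170 ± 10.3 CPM (-3.95 ± 0.20). Kcnip2, the partner of Kv4 channels, was 3.80 to 9.92 CPM in thalamus and 7.06 ± 1.46 CPM in SN, which did not differ beyond their spread, against 427 ± 43.5 CPM in STR.

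**Figure D4:**
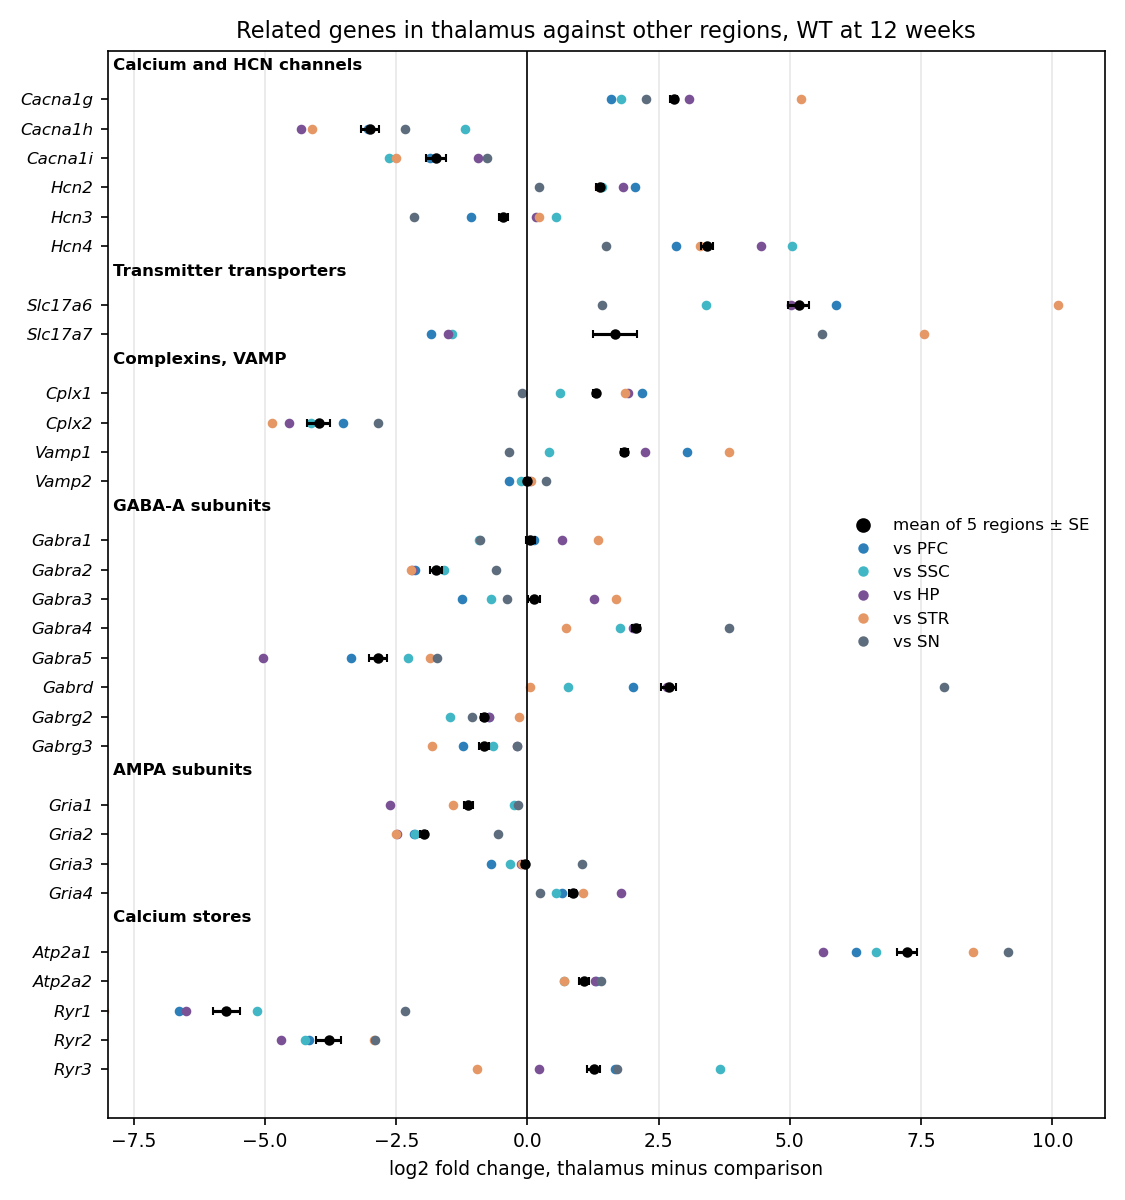
Log2 fold change of related genes in thalamus, with black points for the contrast against the mean of 5 regions (bars, SE) and coloured points for the contrast against each region. Cacna1g and Hcn4 lie on the right in every region and Cacna1h on the left, and Slc17a7 is split between regions.

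Transmitter and release genes were also divided by paralogue. Slc17a6, the vesicular glutamate transporter VGLUT2 of subcortical neurons, stood at 508, 561, 508, 448 and 526 CPM, above SN at 191 ± 44.4 CPM and above every other library (5.16 ± 0.20, adjusted p = 3.32e-19). Slc17a7, VGLUT1, was 503 to 556 CPM in thalamus, below the averages of 1886 in PFC, 1441 in SSC and 1515 CPM in HP, and above 2.84 in STR and 11.2 CPM in SN. Its value of 1.67 ± 0.42 against the mean of the 5 regions (adjusted p = 0.000855) thus joins opposite directions, and with SN left out of the mean it was 0.69 (adjusted p = 0.181). Of the complexins, which clamp the release machinery, Cplx2 was thalamus-lowest at 67.2, 47.2, 53.0, 90.9 and 177 CPM, against 623 ± 46.8 CPM in SN and 2543 ± 281 CPM in STR (-3.98 ± 0.21, adjusted p = 3.87e-16). Cplx1 was 1588 to 1983 CPM in thalamus, at the level of SN and above the 4 other regions (1.30 ± 0.06). Vamp1, the vesicle SNARE of fast-firing neurons, was 473 to 679 CPM, below the mean of SN at 728 ± 92.5 CPM and above the others (1.84 ± 0.07). Syt9, a calcium sensor of fast release, was thalamus-highest at 182 to 227 CPM (3.58 ± 0.20). Over all 22 presynaptic paralogues, 9 were higher, 8 lower and 5 not called, where 34.1% of all tested genes were higher and 32.7% lower.

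Receptors for GABA were divided as well. Of 14 tested GABA-A subunit genes, 7 were higher and 5 lower, where 34.1% of all tested genes were higher and 32.7% lower. Gabra4 and Gabrd encode the alpha4 and delta subunits, which in relay cells form extrasynaptic receptors with a steady current. Gabra4 was 344 to 540.0 CPM in thalamus against 264 ± 33.8 CPM in STR, the next region, with no overlap (2.07 ± 0.08, adjusted p = 1.73e-19). Gabrd was 191 to 219 CPM in thalamus and 197 ± 16.5 CPM in STR, which overlapped, against 0.918 ± 0.936 CPM in SN (2.69 ± 0.14). Gabra5 and Gabra2 were thalamus-lowest. Gabra5, abundant in hippocampus at 228 ± 6.23 CPM, was 3.40 to 11.4 CPM in thalamus (-2.85 ± 0.17), and Gabra2 was 11.6 to 17.6 CPM (-1.75 ± 0.11).

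Among 18 ionotropic glutamate receptor genes, 7 were higher, 8 lower and 3 not called, where 34.1% of all tested genes were higher and 32.7% lower. Gria2, the AMPA receptor subunit whose edited form blocks calcium entry, was lowest in thalamus at 136, 139, 153, 119 and 144 CPM. The next region was SN with 205 ± 19.8 CPM, and the telencephalic regions averaged 607 to 787 CPM (-1.97 ± 0.07, adjusted p = 7.69e-21). Gria4, a fast-gating subunit, was 146 to 196 CPM and thalamus-highest, with a smaller difference (0.86 ± 0.06). Grin2c, an NMDA receptor subunit, was 121 to 151 CPM against 34.5 to 44.4 CPM on average elsewhere (1.78 ± 0.06). Of 7 metabotropic receptors, 4 were higher and 3 lower. Grm4 was 162 to 236 CPM (2.51 ± 0.09), while Grm5 was thalamus-lowest at 43.8 to 58.4 CPM (-1.73 ± 0.08).

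Of 42 genes listed for receptors of acetylcholine and the monoamines, 24 were lower, 12 higher and 6 not called, and 11 were thalamus-lowest. Over all tested genes 32.7% were lower, 34.1% higher and 7.32% thalamus-lowest. Against STR alone the lean was smaller, with 18 lower and 14 higher (median log2 fold change -0.39). Chrm1, the M1 muscarinic receptor, was 1.94, 0.578, 1.02, 2.11 and 3.72 CPM in thalamus, against 264 to 351 CPM on average in the 4 telencephalic regions and 5.48 ± 2.90 CPM in SN (-6.16 ± 0.29, adjusted p = 1.54e-17). Htr2a and Htr1a, serotonin receptors, were at most 0.447 and 1.22 CPM in thalamus and lower than in every other library (-5.40 ± 0.24 and -5.17 ± 0.40). Adrenergic receptors gave examples in the other direction. Adra1b was 108 to 117 CPM in thalamus and 30.4 ± 1.56 CPM in PFC, the next region (3.61 ± 0.11, adjusted p = 2.05e-22), and Adra2b was 11.9 to 18.8 CPM against at most 2.56 CPM on average (5.47 ± 0.20). The nicotinic subunits Chrna4 and Chrnb2, which join in 1 receptor, were both higher than the mean (2.22 ± 0.08 and 1.24 ± 0.05), and SN held more Chrna4 than thalamus on average (310 ± 31.9 against 244 ± 14.3 CPM).

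Among cell-contact genes, 13 of 23 synaptic adhesion genes and 13 of 23 axon guidance genes were lower and 7 of each higher. Over all tested genes 32.7% were lower and 34.1% higher. The adhesion genes were split against HP alone (9 lower, 8 higher) and against STR alone (11 lower, 10 higher). The guidance genes leaned less against SN alone (10 lower, 8 higher). Lrrtm1, a postsynaptic organiser of excitatory synapses, was thalamus-highest at 241, 248, 280, 287 and 264 CPM, against at most 102 ± 7.99 CPM in HP (2.22 ± 0.04, adjusted p = 5.43e-27). Lrrc4c, which encodes the postsynaptic ligand of netrin-G1, was thalamus-lowest at 27.3 to 53.7 CPM (-1.63 ± 0.10), while Ntng1 itself was high. Slit1 and Slit2, secreted repellents of growing axons, were both thalamus-lowest (-2.87 ± 0.20 and -3.37 ± 0.27). Slit2 was 1.10 to 5.09 CPM against 48.1 ± 6.61 CPM in PFC.

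The cAMP and PKA list bears on the gene that the series targets. Of its 31 genes, 18 were lower, 7 higher and 6 not called, and the median log2 fold change was -0.32. Over all tested genes 32.7% were lower and 34.1% higher. The difference was largest against STR alone (18 lower, 10 higher, median -0.89). Against HP alone the list was split (11 lower, 10 higher, median -0.05). Phosphodiesterases, which break down cyclic nucleotides, led the falls. Pde1a was 1.75 to 4.22 CPM in thalamus against 299.9 ± 44.0 CPM in PFC (-5.10 ± 0.21, adjusted p = 1.31e-18). Pde2a was 26.5 to 39.8 CPM against 144 ± 10.5 CPM in SN and 1089 ± 88.0 CPM in STR (-3.84 ± 0.09), and Pde8b was 14.5 to 17.1 CPM (-2.39 ± 0.07). Adcy8, a calcium-stimulated adenylyl cyclase, was on the high side at 83.2 to 115 CPM against at most 35.0 CPM on average elsewhere (2.38 ± 0.08). Akap11 itself was 227, 226, 193, 205 and 182 CPM in thalamus. That level lay beside SN at 204 ± 19.8 CPM and SSC at 222 ± 21.03 CPM and below STR at 350.3 ± 31.0 CPM, and it gave a small difference from the mean (-0.32 ± 0.07, adjusted p = 0.000449).

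Most markers of telencephalic regions were lower than the mean of the others, where 32.7% of all tested genes were lower. Of 18 telencephalic transcription factors none was higher and 16 were lower (median log2 fold change -3.76), of 17 genes of cortical and hippocampal excitatory neurons 14 were lower and 2 higher, and of 12 genes of striatal projection neurons 11 were lower and none higher. Against SN alone 6 of the 18 factors were higher and 8 lower, and 4 of the 17 excitatory neuron genes were higher and 8 lower. Of the 12 striatal genes 3 were higher and 6 lower against SN. Neurod2 and Neurod6, factors of cortical excitatory neurons, were at most 0.287 and 0.110 CPM in thalamus, where STR is also near 0. Tac1, the precursor of substance P, was 0.177 to 0.720 CPM against 208 ± 30.7 CPM in STR (-4.94 ± 0.33). Of 14 midbrain and dopamine neuron genes, 2 were higher, 4 lower and 8 not called. Against SN alone all 14 were lower, while against each other region 5 to 7 were higher and 1 to 3 lower. Th, the first enzyme of dopamine synthesis, was 1.79, 0.0963, 0.0442, 2.28 and 0.301 CPM in thalamus against 842 ± 121 CPM in SN. Of 8 habenula genes 5 were lower and 2 higher. The hypothalamic list had 12 genes of which 5 passed the filter, 3 of them higher. Pmch and Trh, the precursors of melanin-concentrating hormone and thyrotropin-releasing hormone, were not called without thalamic libraries 1 and 4 (-0.49, adjusted p = 0.728, and 0.76, adjusted p = 0.12), and Pmch was not called without library 1 alone (-0.0411, adjusted p = 0.955). Gal, the neuropeptide galanin, was 2.43 to 5.28 CPM in thalamus and at most 0.574 CPM on average elsewhere. Of 14 choroid plexus genes 7 were lower and 1, Otx2, a factor shared by choroid plexus and midbrain, was higher than the mean at 4.18 to 5.15 CPM, by at least 3.89 on the log2 scale, with HP (11.2 ± 6.87 CPM) and SN (7.09 CPM) above it on average and no counts in PFC.

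Glial genes separated by cell type. All 17 myelin and oligodendrocyte genes were higher than the mean of the others (median log2 fold change 1.32), and none was thalamus-highest. Against SN alone none of the 17 was higher (25.8% of all tested genes were) and 9 were lower (27.4% of all tested genes). Against PFC all 17 were higher, with a median of 3.34, where 33.2% of all tested genes were higher. Mbp, myelin basic protein, stood at 4037, 3487, 3060.0, 3729 and 2597 CPM in thalamus, against 4346 ± 536 CPM in SN and 302 ± 39.4 CPM in PFC (1.46 ± 0.09, adjusted p = 8.55e-15). The summed level of the list ranged from 8548 to 13970 CPM among the thalamic libraries, lowest in library 5 and highest in library 1. Oligodendrocyte precursor genes differed less, with 5 of 6 higher and a median of 0.27. Against SN alone none of the 6 was higher and 3 were lower.

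Of 17 astrocyte genes 12 were higher, 3 lower and 2 not called. Against SN alone 6 were higher and 4 lower (median log2 fold change 0.03), where 25.8% and 27.4% of all tested genes were. Kcnj10, the potassium channel Kir4.1 that buffers potassium, was thalamus-highest at 997, 1157, 898, 833 and 823 CPM, above SN at 523 ± 52.2 CPM and the other regions at 120 to 234 CPM on average (2.19 ± 0.07, adjusted p = 3.03e-21). Slc6a11, the GABA transporter GAT-3 of astrocytes, was 964 to 1137 CPM in thalamus and 1071 ± 109 CPM in SN, against 82.2 to 168 CPM on average in the other regions (2.38 ± 0.07). Agt, angiotensinogen, was 34.9 to 139 CPM, below SN on average (189 ± 40.7 CPM) and above the 4 others (3.31 ± 0.20). Gfap, the filament protein of reactive and fibrous astrocytes, went the other way at 24.9, 5.26, 14.0, 43.0 and 13.2 CPM against 327 ± 46.8 CPM in HP (-2.14 ± 0.34, adjusted p = 2.12e-06). Microglial genes differed little from the mean, with 4 of 11 lower, none higher and none past 2-fold, where 32.7% of all tested genes were lower. Against SN alone 9 of the 11 were lower and none higher, where 27.4% of all tested genes were lower. Against SSC alone 4 were higher and none lower. Csf1r, the receptor on which microglia depend, was 67.0 to 75.8 CPM (-0.32 ± 0.06). Of 12 endothelial and mural genes 8 were higher and 1 lower, none past 2-fold. Against SN alone none of the 12 was higher and 1 was lower.

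Genes induced by neuronal activity were low in thalamus. Of 18 early genes, 14 were lower, 2 higher and 2 not called, and 13 were at least 2-fold lower (median log2 fold change -1.81). Egr3 was 0.869, 0.462, 0.773, 0.784 and 1.15 CPM in thalamus and 64.0 to 143 CPM on average in the telencephalic regions (-5.56 ± 0.37, adjusted p = 5.80e-14). Junb, an AP-1 subunit, was 6.78 to 9.19 CPM against 39.5 to 97.6 CPM in those regions (-2.499 ± 0.26). SN was close to the thalamic level, with 1.07 ± 0.633 CPM of Egr3 and 10.1 ± 2.73 CPM of Junb, and against SN alone 2 of the 18 genes were lower (27.4% of all tested genes) and 5 higher (25.8%), a share of higher genes close to that of all genes.

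The thalamic libraries varied most in genes of GABA neurons. Among genes with a thalamic mean of at least 10 CPM, the 5 with the widest range (highest over lowest library, each as CPM + 1) were Gad1, Gad2 and Slc32a1, which make and load GABA, Sst, the neuropeptide somatostatin, and Six3, a transcription factor of the reticular nucleus. Gad1 stood at 426, 39.6, 73.8, 582 and 7.79 CPM in libraries 1 to 5, Slc32a1 at 49.5, 4.35, 8.44, 85.7 and 0.738 CPM, and Sst at 58.8, 6.88, 8.90, 102.5 and 1.37 CPM. Six3 followed with 44.6, 6.28, 9.39, 69.4 and 0.875 CPM. These 4 genes gave the same order of libraries, with library 4 highest, then 1, 3, 2 and 5. Prkcd in the same libraries spanned only 2080 to 2365 CPM. Calb2, calretinin, and Cbln4, a cerebellin, had their highest values in library 5, at 169.8 and 49.6 CPM, against 8.47 to 57.6 and 2.89 to 5.10 CPM in the other 4.

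The reticular list was divided in the contrast with other regions, with 3 of 8 genes higher, 4 lower and 1 not called. Its summed level was 59.3 to 1367 CPM in thalamus, and 575 to 2124 CPM elsewhere. The contrast for Gad1 was -1.08 ± 0.44 (adjusted p = 0.0319) and for Slc32a1 -1.97 ± 0.46 (adjusted p = 0.000448). Without libraries 1 and 4, an alternative chosen after seeing the data, they were -3.56 (adjusted p = 5.79e-10) and -4.67 (adjusted p = 4.81e-13). The call for Gad1 was lost without library 2 (-0.81, adjusted p = 0.0989), without library 3 (-0.86, adjusted p = 0.103) and with SN left out of the mean (-0.95, adjusted p = 0.0558). The thalamic libraries also differed among themselves in other groups, to an extent that was not compared by a test. Thalamic Gad1 ran from 8.95 to 363 CPM in HET and from 5.15 to 78.0 CPM in KO at 12 weeks (n = 5 each), and from 10.2 to 657 CPM in WT at 4 weeks (n = 6). What this spread reflects was not tested.

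**Figure D5:**
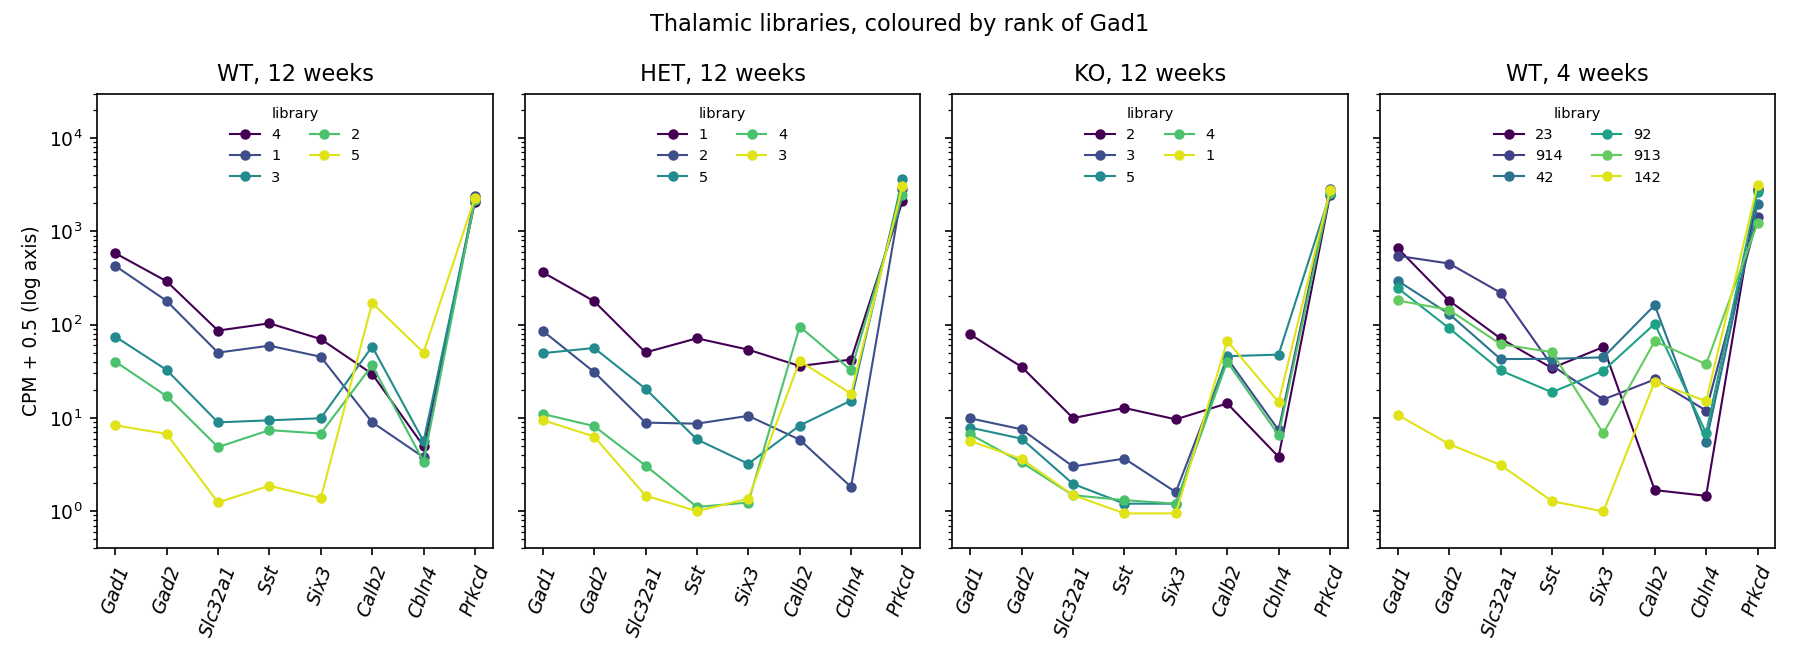
Levels of 5 GABA neuron or reticular nucleus genes, of Calb2 and Cbln4 and of Prkcd in each thalamic library, as CPM + 0.5 on a log axis, with 1 line per library and 4 panels for WT, HET and KO at 12 weeks and WT at 4 weeks; colours follow the rank of Gad1 within a panel. Gad1 spans 7.79 to 582 CPM in WT at 12 weeks while Prkcd spans 2080 to 2365 CPM.

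The contrast was then fitted in the other animals at 12 weeks, which share no library with the WT fit. Of the 1531 thalamus-highest genes, 1526 were tested in HET and 1516 of them (99.3%) were called higher than the mean of the other regions there, where 32.2% of all tested genes were called higher. In KO the count was 1522 of 1526 (99.7%), against 33.8% of all tested genes. None was called in the opposite direction in either genotype. The stricter class itself was found again for 84.1% in HET and 88.7% in KO, where 9.13% and 10.1% of all tested genes met it. Of the thalamus-lowest genes, 1243 of 1253 were called lower in HET (34.3% of all tested genes) and 1252 of 1256 in KO (35%). The thalamus-lowest class was found again for 79.0% in HET and 82.9% in KO, where 7.82% and 8.8% of all tested genes met it. Shox2 was 170 to 237 CPM in HET thalamus and 173 to 211 CPM in KO thalamus, and Prkcd was 2100 to 3602 and 2422 to 2848 CPM.

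The difference between genotypes was tested directly as an interaction. Between HET and WT no gene passed in edgeR (0 of 17616, 0%, with 1557 genes at an unadjusted p under 0.05 and 11 genes called by DESeq2). Without HET library 1 the edgeR count was 109, and without HET library 4 it was 10. Without any single WT library it was between 1 and 12. Between KO and WT 169 of 17628 genes passed (0.959%), 35 of them with a positive (0.199%) and 134 with a negative difference (0.76%). The GABA neuron genes were among the negative ones. Gad1 differed by -3.42 on the log2 scale, and its thalamic level was 5.15 to 78.0 CPM in KO and 7.79 to 582 CPM in WT, which overlapped. Sst differed by -3.49 and Slc32a1 by -3.21, and Rspo2, a secreted activator of Wnt signalling, by -5.38 (adjusted p = 0.0029). Rspo2 was at most 0.0279 CPM in KO thalamus and 0.0193 to 1.08 CPM in WT. The count rested partly on single WT libraries, with 73 genes without thalamic library 4, which is high in reticular markers, and 265 without library 2. Without library 4 the difference for Rspo2 was -3.27 (adjusted p = 0.164), and that for Crhbp, a binding protein of the stress peptide CRH, went from -3.90 to -3.04 (adjusted p = 0.209). With STR left out of the mean, an alternative chosen after seeing the data, 150 genes passed.

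At 4 weeks some libraries stood apart from their labels. The library labelled SN WT 92 held 41.1 CPM of Akap11, where the other 4-week SN libraries labelled WT held 184 to 227 CPM. That library and SN WT 42 held 402 and 1336 CPM of Prkcd, the thalamic gene, against 7.14 to 149 CPM in the other 4, and 72.8 and 3.96 CPM of Th, against 172 to 556 CPM. In thalamus, WT 913 held 512.5 CPM of Nrgn and WT 914 held 58.4 CPM, where the other 4 thalamic libraries held at most 8.05 CPM. The summed relay neuron genes were 5843 CPM in WT 913 and 7320 CPM in WT 914, and 9906 to 13120 CPM in the other 4. WT 23 was left out together with WT 913 and WT 914 because of earlier results of these data, and its sum of 12070 CPM lay within the range of the others. With all libraries, 1348 of 1524 thalamus-highest genes (88.5%) were called higher at 4 weeks, where 25.9% of all tested genes were, and 36.8% met the strict class again, as 3.66% of all tested genes did. Without SN WT 92 and WT 42, 1482 of 1525 (97.2%) were called higher, where 32% of all tested genes were, and 56.4% met the strict class, as 5.8% of all tested genes did. Without thalamic WT 913, WT 914 and WT 23 the count was instead 1249 of 1524 (82.0%, against 19.6% of all tested genes), and 39.1% met the strict class (against 3.88%). Of the thalamus-lowest genes 1068 of 1252 (85.3%) were called lower at 4 weeks (22.2% of all tested genes), and 14.9% met the strict class (1.32% of all tested genes). Without SN WT 92 and WT 42, these were 1164 of 1254 (92.8%, against 27.4% of all tested genes) and 23.7% (against 2.1%). Without the 3 thalamic libraries, they were 1112 of 1255 (88.6%, against 22.1% of all tested genes) and 46.7% (against 4.16%).

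The difference between 4 and 12 weeks in WT was called for 499 of 17552 genes (2.84%), 371 of them positive (2.11%) and 128 negative (0.729%). The positive ones included all 10 of the largest falls, such as Nrgn (3.36) and Mas1 (6.67). These 10 were chosen for low values in 12-week libraries that enter this test, so their direction is no independent result. Mas1 was 10.5 CPM in thalamic WT 913, 0.702 CPM in WT 914 and at most 0.0797 CPM in the other 4 libraries. Without WT 913 the count was 136, and without WT 913, WT 914 and WT 23 together it was 28. The largest differences, Nkx2-1, Prg4 and Lct, were no longer called without WT 913 (adjusted p = 0.509, 0.433 and 0.140). Leaving out 12-week library 2 or 3 gave 247 or 309 genes, and leaving out SN WT 92 and WT 42 gave 815.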

How the data were processed

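Gene levels came from 1 deposited table of expected counts, which the authors estimated with Salmon against mm10, per the submitters' processing notes. For the Salmon version, the annotation and the strand setting the sources used here give nothing. Libraries were made with a stranded mRNA kit, per the labels' protocols. Of the values above 0, 77.9% were not whole, and they were rounded before testing. Totals of the 30 libraries were 31.9 to 69.8 M counts.

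Columns were assigned to groups by their names. In edgeR 4.0.16 (R 4.3.3) genes were filtered by region with filterByExpr and scaled by TMM, and 1 coefficient per region was fitted with the quasi-likelihood method to the 30 WT libraries at 12 weeks. The main contrast is thalamus minus the equal-weight mean of 5 regions, and p-values were adjusted by Benjamini-Hochberg over all tested genes, with a threshold of 0.05. The same contrast was fitted in HET and KO at 12 weeks and in WT at 4 weeks, and differences between these groups were tested as interactions. DESeq2 1.42.0, other scaling, no filter, other region weights, a test against a 2-fold change, the replicate number as a block and leaving out libraries were alternatives. SEs are the log2 fold change divided by the root of the F statistic. A region at 0 was set to 3 counts over its 5 libraries for bounds. The method was tested on simulated data.

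Named genes are the 15 largest rises and 10 largest falls that are called against every region, show no overlap between libraries and reach a mean of 10 CPM, up to 4 members per list, the 3 largest interactions and the 5 widest ranges within thalamus. A further 29 genes were added after values were seen, as were Kcne4 and Nr2f2. The members and the 28 lists were chosen with earlier results of these data known. Some listed genes are not reported here. Gene positions are from GENCODE M21. Without the strand setting, reads of overlapping antisense genes cannot be told apart.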

Additional observations from a re-analysis of the deposited data

Results flagged for a closer look

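Among 187 named genes and summed lists, 18 had 1 thalamic library apart from the other 4, by a gap above 0.71 of the range (Dixon's 95% value for 5 libraries). Chance flags about 1 in 20 such groups if values are normally distributed, which does not hold for genes near 0. For Slc18a3 and Emx1 the other 4 libraries were at 0, so any counts in 1 library give the full gap. Library 4 was apart for Htr1a (1.22 CPM), Pde2a (39.8 CPM), Pde8b (17.1 CPM), Sfrp1 (1.59 CPM), Gpr6 (0.314 CPM), Egr4 (1.10 CPM) and Rspo2 (1.08 CPM). Library 5 was apart for Nwd2 (16.9 CPM), Chat (0.137 CPM), Rab3b (10.9 CPM), Cbln4 (49.6 CPM) and the summed habenula genes (31.3 CPM). Library 1 was apart for Slc18a3 (0.0497 CPM), Pmch (1.19 CPM) and Kcnj13 (0.0745 CPM), library 2 for Synpo2 (510.9 CPM) and Abcc9 (13.8 CPM), and library 3 for Emx1 (0.0663 CPM).

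Named genes were partly chosen by these differences, by their range or after values were seen, so they are not a fair sample of all genes. Of the 159 named genes, 16 had a thalamus contrast that differed between KO and WT by the interaction test, as did 0.959% of all tested genes. Those named for the size of a change or a range were Slc32a1 (-3.21), Sst (-3.49), Rspo2 (-5.38), Spon2 (5.08), Crhbp (-3.90), Gad1 (-3.42) and Gad2 (-3.36), in log2 units. Meis2 (-2.95) and Cacna1i (-1.68) were named after their values were seen. Others included Trh (-2.89), Slit1 (-1.47), Slit2 (-1.27), Dkk3 (-1.27), Gabra5 (-0.77) and Lrrtm1 (0.30). Spon2 had no counts in WT thalamus, so its fitted value is not a measure of size. Spon2 was no longer called without KO library 1 or 3 or WT library 4 (adjusted p = 0.0658, 0.0525 and 0.101).

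Between 4 and 12 weeks in WT the contrast differed for 42 named genes, and for 2.84% of all tested genes. The largest falls and interactions among the named genes were chosen from libraries that enter this test. All 42 were positive except Epha1 (-2.59) and Kcnj10 (-0.68). Those named for the size of a change or a range were Mas1 (6.67), Car12 (6.04), Krt9 (5.37), Kcnv1 (3.93), Icam5 (4.89), Lamp5 (2.61), Egr2 (3.78), Nrgn (3.36), Itpka (4.24), Penk (4.28), Spon2 (5.68), Crhbp (2.56), Nkx2-1 (9.24), Prg4 (8.75) and Lct (7.71). Nkx2-1 and Prg4 had no counts in thalamus at 12 weeks. In thalamic WT 913 at 4 weeks Nkx2-1 was 6.18 CPM, Prg4 2.02 CPM and Lct 48.4 CPM.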

How the results depend on the processing

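Scaling by relative log expression, no filter and DESeq2 left every named gene of the WT contrast on its side of the threshold and in its direction where a value was given. A test against a 2-fold change called 2306 genes, 989 higher and 1317 lower. With SN left out of the mean Slc6a3 turned to 0.70 (adjusted p = 0.284), and Th (-0.79, adjusted p = 0.105), Chrnb3 (-1.77, adjusted p = 0.175), Kcnj13 (adjusted p = 0.0515), Trem2 (adjusted p = 0.0543), Gad1 and Slc17a7 were no longer called. Chrnb3 and Kcnj13 also lost their calls with both cortical regions averaged first (adjusted p = 0.0583 and 0.0674) and without STR library 2 (0.224 and 1), Chrnb3 without STR library 4 (0.0777), and Kcnj13 without thalamic library 2 (0.0513). Rspo2 lost its call without STR library 2 (adjusted p = 0.0866), Prg4 without STR library 3 (1), Trem2 without thalamic library 1 (0.07) and Gad2 without thalamic library 3 (0.0529), so list counts that include these genes shift by as many. Without thalamic libraries 1 and 4 Pmch turned to -0.49 (adjusted p = 0.728), and leaving out 1 library gave -0.0411 (without library 1) to 2.25. For Cbln4 that range was -1.24 (without library 5) to 0.73. DESeq2 called 300.0 genes for KO minus WT and 11 for HET minus WT. Leaving out 1 thalamic library gave 73 to 265 genes for KO minus WT, 0 to 109 for HET minus WT and 136 to 682 for 4 minus 12 weeks. Without thalamic WT 913, WT 914 and WT 23 the last count was 28, and without SN WT 92 and WT 42 it was 815. With the replicate block the WT contrast called 11794 genes, with 1640 thalamus-highest and 1318 thalamus-lowest. With that block KO minus WT had 237 genes and HET minus WT 0. Libraries with the same number had deviations correlated by -0.192 to 0.38 (median 0.125, against -0.0347 for other pairs), and 23 of 30 correlated best with their own number, which is a hint of shared structure. The correlation passed 0.1 in 44 of 75 pairs and the labels give no shared animal, so the block was kept as an alternative only. Genes with few counts in thalamus, such as Mas1 with 4, are limited by depth.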
